A study of Mus musculus with 15 samples.

Results

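The epithelial ETS factors Elf3, Elf5, Ehf and Spdef were followed across 15 expression arrays of mouse lung and lung tumour. Members were the probe sets whose annotation names exactly 1 of these 4 genes. There were 8 such probe sets among 45037 that are not array controls, or 4 of 18193 named genes. Ehf had 4 probe sets, Elf5 had 2, and Elf3 and Spdef had 1 each. The rule used gene names and no measured value, but the members were chosen with earlier results of these data known.

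ETS proteins are transcription factors that share a winged helix-turn-helix DNA-binding domain and recognise sites built on a GGAA core. Several other members of the family act in blood, vessel and mesenchymal cells, whereas Elf3, Elf5, Ehf and Spdef are expressed mainly in epithelia. Elf3 acts in epithelial differentiation and inflammation, and Ehf is its close relative in airway and other epithelia. Elf5 is best known for secretory differentiation of the mammary gland and is active in the distal epithelium of the developing lung. Spdef drives the differentiation of mucus-producing goblet cells.

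RNA came from 5 groups with 3 arrays each, all mice being of mixed background. At 12 months the groups were wild type lung and lung tumours of Ptend/dSmad4d/d mice, each array holding a piece of the lung or of a single tumour. At 7 months they were Ptend/d lung, Ptend/dSmad4d/d lung and wild type lung, again as pieces of the organ, taken before tumours arise according to the series design. The tumours and the Ptend/dSmad4d/d lungs carry both deletions, and the Ptend/d lungs carry the first alone. Smad4 is the partner that receptor-activated SMADs need to act on genes in response to TGF-beta and BMP ligands. The Cre driver, and with it the cells that carry the deletions, is not stated in any source used here, and no group carries the Smad4 deletion alone. The labels do not say whether the 3 tumours came from 3 mice or whether each array at 7 months holds 1 mouse. At 12 months the titles of the wild type arrays and of most tumour arrays each carry a different number. What these numbers stand for is not given, and any pairing by them was not tested. The p-values therefore measure the spread between these samples, which may be technical in part.

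Median intensity lay between 90.9 and 99.5 on all arrays, and log2 values correlated at 0.982 to 0.996 within groups. None of the 3 Smad4 probe sets was called in any comparison; in the tumours their log2 fold changes were 0.22 to 0.38. It is not known here whether they lie in the deleted part, so they do not check the labels. Xist, which marks an inactive X chromosome, read 6786 and 6917 on 2 of the 3 wild type arrays at 12 months, 69.8 on the other one and 64.1 to 236.5 in the tumours. At 7 months 8 of 9 arrays carried both Xist and Y-linked RNA, and 1 wild type array carried Y-linked RNA with Xist at 48.1. The 18S ribosomal RNA controls read 1121 to 2036 in the tumours and 5492 to 8084 on all other arrays. The part of these differences in the results below was not tested. Tumour values against the 1 wild type array without Xist are given as descriptions, since an array alone has no spread of its own. The small number of arrays a group limits the precision throughout.

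The genes lie at 3 places in GRCm38.p6, the build of the RefSeq gene table. Elf3 spans chr1:135253574-135258472 and Spdef chr17:27714446-27731003. Ehf (chr2:103263431-103303275) and Elf5 (chr2:103412098-103450989) are neighbours, 108.8 kb apart. RefSeq promoter windows, from 250 bases before to 50 after a transcript start, were matched for 3 of the 4 genes. Windows were looked up for all 4 genes whatever their response, and none was found for Ehf. The motif marked in them is one that ETS proteins bind. Each window is printed 5′ to 3′ on the gene's own strand, with every GGAAG, or CTTCC where it lies on the other strand, in capitals.
Elf3, minus strand, chr1:135258423-135258722: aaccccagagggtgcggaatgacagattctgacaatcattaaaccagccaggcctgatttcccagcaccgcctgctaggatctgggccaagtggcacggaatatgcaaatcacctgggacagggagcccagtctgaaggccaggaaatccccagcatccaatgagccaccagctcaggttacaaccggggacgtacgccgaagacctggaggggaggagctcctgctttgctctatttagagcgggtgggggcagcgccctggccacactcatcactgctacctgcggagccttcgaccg
Elf5, first start, plus strand, chr2:103411848-103412147: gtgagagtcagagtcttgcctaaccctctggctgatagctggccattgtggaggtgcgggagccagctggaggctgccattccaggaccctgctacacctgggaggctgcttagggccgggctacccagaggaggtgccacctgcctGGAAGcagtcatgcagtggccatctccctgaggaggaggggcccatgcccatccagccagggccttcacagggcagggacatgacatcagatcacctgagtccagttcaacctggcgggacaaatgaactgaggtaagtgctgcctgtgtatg
Elf5, second start, plus strand, chr2:103423818-103424117: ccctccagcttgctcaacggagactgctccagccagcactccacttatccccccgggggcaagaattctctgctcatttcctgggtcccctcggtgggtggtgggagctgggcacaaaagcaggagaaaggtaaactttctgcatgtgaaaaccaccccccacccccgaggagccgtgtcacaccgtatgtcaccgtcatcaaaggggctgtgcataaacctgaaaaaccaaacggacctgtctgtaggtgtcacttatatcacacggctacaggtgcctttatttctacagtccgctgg
Spdef, minus strand, chr17:27728902-27729201: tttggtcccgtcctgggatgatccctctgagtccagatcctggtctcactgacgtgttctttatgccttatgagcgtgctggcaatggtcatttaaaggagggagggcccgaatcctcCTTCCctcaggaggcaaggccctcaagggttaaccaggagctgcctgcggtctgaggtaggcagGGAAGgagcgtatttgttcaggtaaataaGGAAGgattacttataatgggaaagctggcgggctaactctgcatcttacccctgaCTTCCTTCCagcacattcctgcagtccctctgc
Motifs were counted on both strands. GGAAG, an ETS core with a following G, occurred 5 times in the Spdef window, once in the first Elf5 window and 0 times in the Elf3 and second Elf5 windows. Of 32851 RefSeq windows of this length, 71.4% hold it at least once, with a median of 1, and 2.06% hold it 5 or more times. The bare core GGAA, which every GGAAG contains, occurred 7 times in the Spdef window, 4 times in that of Elf3, and 2 and 1 times in those of Elf5; 96.0% of all windows hold it, with a median of 3. CAGAC, the SMAD-binding element, occurred once in the windows of Elf3, Spdef and the second Elf5 start, and 49.6% of all windows hold it. GTAAACA, a forkhead element, was in none of the 4 windows and is in 3.6% of all. The deposited arrays hold no binding data, so these counts describe letters only.

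**Figure D1:**
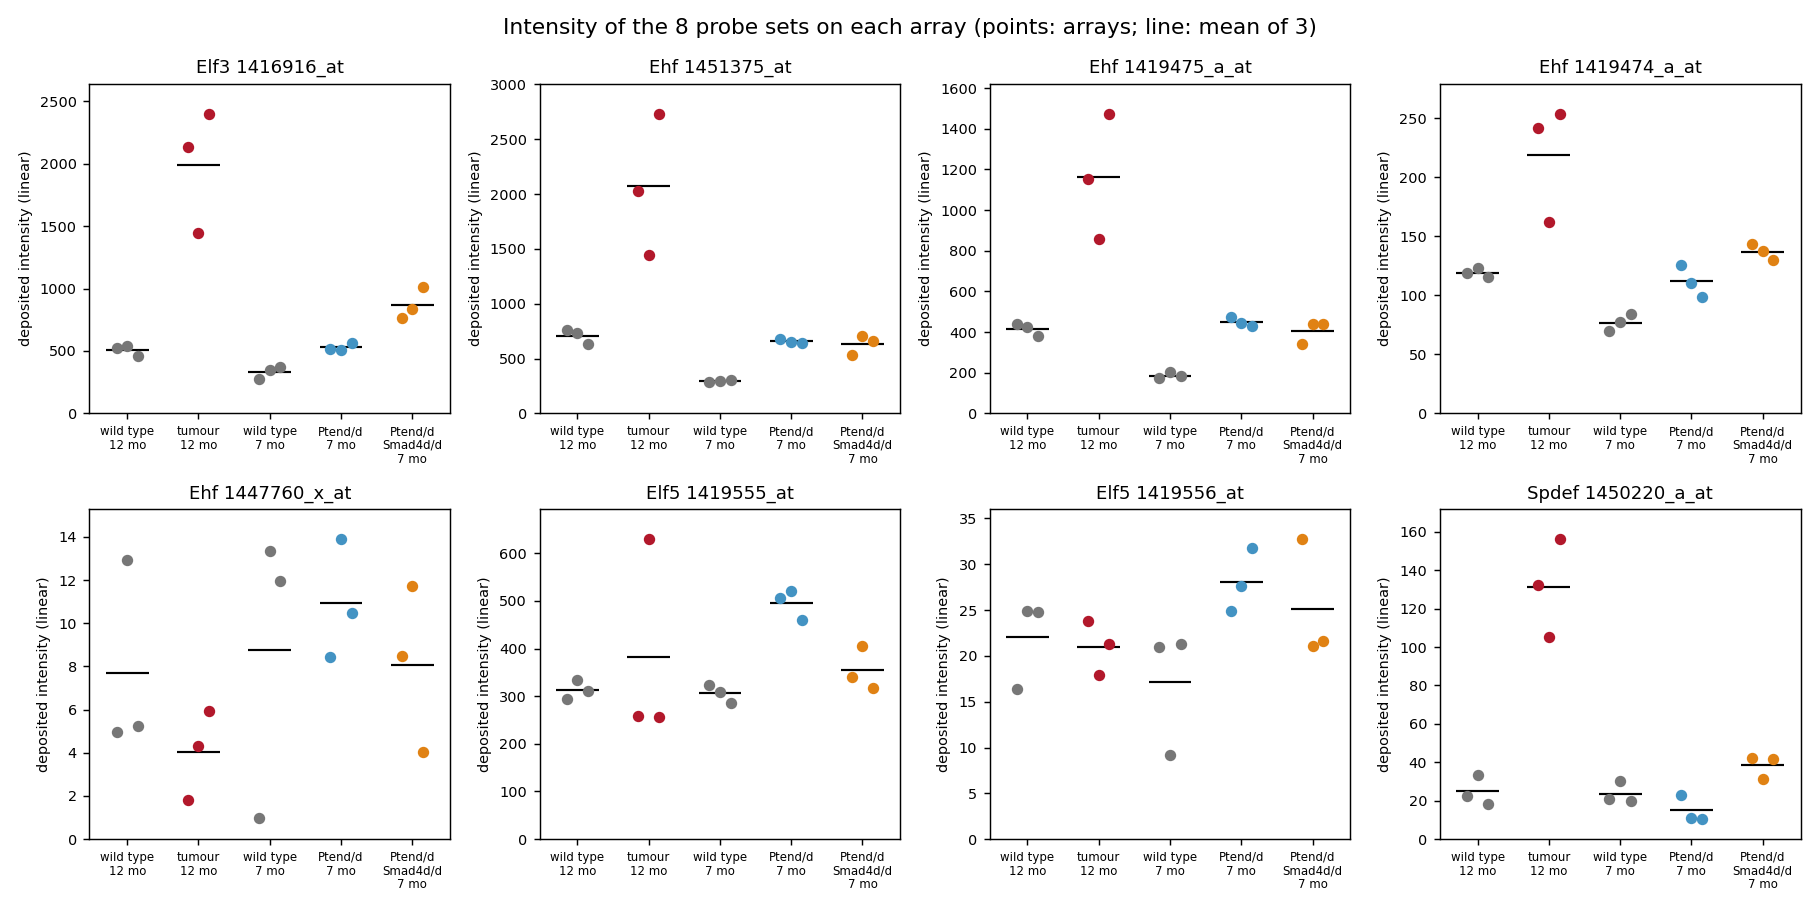
Deposited intensity on a linear scale (vertical axes, starting at 0) of the 8 probe sets for Elf3, Ehf, Elf5 and Spdef on each of the 15 arrays, in the 5 groups along the horizontal axes; points are arrays and lines are means of 3. Elf3, 3 of the 4 Ehf probe sets and Spdef lie higher in all 3 tumours than in any wild type array at 12 months, while Elf5 1419555_at is high in the 3 Ptend/d lungs and in 1 tumour.

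Values below are deposited intensities on a linear scale, and a probe set was called at an adjusted p under 0.05 in limma over all 45037 probe sets. Each fold change was taken on log2(intensity + 16), so it understates changes of dim probe sets. In tumours against wild type, 5 of the 8 probe sets rose and 0 fell, where 5.18% of all probe sets rose and 3.61% fell. In Ptend/d against wild type at 7 months 5 rose and 0 fell, against 5.62% and 4.07% of all. In Ptend/dSmad4d/d against wild type 4 rose and 0 fell, against 3.07% and 0.506% of all. Between Ptend/dSmad4d/d and Ptend/d 1 probe set, that of Elf3, rose and 0 fell, against 0.706% and 0.657% of all. Without a call being asked, all 3 values lay above all 3 of the other group for 5 of the 8 in tumours (15.9% of all probe sets), 6 in Ptend/d (15.1%) and 5 in Ptend/dSmad4d/d against wild type (11.5%). Between the mutants this held for 3 (13.5%), and for 1, Elf5 1419555_at, in the lower direction (12.0%). Probe sets of 1 gene share their transcript, so the 3 called Ehf probe sets are 1 gene seen 3 times. The members were chosen with earlier results known, so the shares over all probe sets are set beside these counts as descriptions only. The 3 comparisons at 7 months share arrays, and their values are given side by side. Every array is a piece of tissue, so more cells of a type cannot be told apart from more RNA per cell.

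Elf3 rose in every comparison, and both the Ptend/d lungs and the Ptend/dSmad4d/d lungs stood apart from each other and from wild type. At 12 months Elf3 1416916_at read 519.9, 540.1 and 459.4 on the wild type arrays and 2135, 1443 and 2401 in the tumours. The lowest tumour was far above the highest wild type lung. The means were 506 ± 42.0 and 1993 ± 494 (SD, n = 3 each), a 3.77-fold rise (log2 fold change 1.91 ± 0.20 SE, limma adjusted p = 0.00838). At 7 months Elf3 read 276.9, 346 and 375 in wild type, 518, 509 and 566 in Ptend/d, and 761, 839 and 1015 in Ptend/dSmad4d/d lung. The 3 groups form separate steps with no overlap.

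The rise of Elf3 over wild type at 7 months was 1.58-fold in Ptend/d lung (0.66 ± 0.13, adjusted p = 0.0165) and 2.55-fold in Ptend/dSmad4d/d lung (1.35 ± 0.13, adjusted p = 0.000822). Between the mutants Elf3 was 1.61-fold higher with the Smad4 deletion added (0.69 ± 0.13, adjusted p = 0.0480). This last call sits at the threshold. It was kept in 8 of 18 alternative settings and in 0 of the 6 that left out 1 array, where the log2 fold change stayed between 0.58 and 0.78. The call against wild type in Ptend/d lung was lost without Ptend/d array 1 (adjusted p = 0.0525) or array 3 (0.0642), and the tumour call without wild type array 3 at 12 months (1.85, 0.0510). Against the 1 wild type array without Xist the tumour value was 1.82. The tumour effect exceeded that of the Ptend/dSmad4d/d lungs by 0.56 ± 0.24, which was not called (adjusted p = 0.267), but was when tumour array 2 was left out (0.78, 0.0321).

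The mean level of Elf3 was lowest in wild type at 7 months, followed by wild type at 12 months, Ptend/d, Ptend/dSmad4d/d and the tumours. Only wild type at 12 months and Ptend/d, neighbours in this order, overlapped. Levels across the ages differ in age, tissue piece and any batch together, which cannot be told apart. Rnpep, an aminopeptidase gene 4.2 kb from Elf3, was also called at 7 months, at 1.33-fold in Ptend/dSmad4d/d (0.41 ± 0.08, adjusted p = 0.0293) and 1.29-fold in Ptend/d lung (0.37 ± 0.08, 0.0244). It was not called in tumours (0.49 ± 0.13, 0.0715) or between the mutants (0.04, 0.857). The neighbours Timm17a and Ptprv were called in none of these 4 comparisons, and Gpr37l1, 85.9 kb away, in tumours alone (0.71 ± 0.10, 0.0143).

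Ehf rose in both mutant lungs and in the tumours, for 3 of its 4 probe sets. The rise in the mutants was of like size for 1451375_at and 1419475_a_at, and larger in Ptend/dSmad4d/d than in Ptend/d for 1419474_a_at, though that difference was not called. At 12 months Ehf 1451375_at read 759, 732 and 632 in wild type and 2032, 1448 and 2733 in the tumours. The tumours lay above wild type without overlap, at 2071 ± 643 against 708 ± 67.1 (n = 3 each), a 2.80-fold rise (1.49 ± 0.23, adjusted p = 0.0173). At 7 months Ehf 1451375_at read 286, 291 and 309 in wild type, 679.7, 649 and 644 in Ptend/d, and 537, 706 and 664 in Ptend/dSmad4d/d lung. Both mutants were above every wild type array, and they overlapped each other.

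This gave a 2.17-fold rise in Ptend/d (1.12 ± 0.10, adjusted p = 0.000392) and a 2.08-fold rise in Ptend/dSmad4d/d lung (1.06 ± 0.10, adjusted p = 0.000737). The difference between the mutants was -0.06 ± 0.10, with a 95% interval of -0.29 to 0.18 (adjusted p = 0.830), so a change of this probe set with the Smad4 deletion of the size seen for Elf3 lies outside this interval. Whether the step between the mutants differs between Elf3 and Ehf was not tested.

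The other Ehf probe sets were read on the same arrays. Ehf 1419475_a_at read 380.3 to 438 in wild type and 857 to 1474 in the tumours at 12 months (2.67-fold, 1.42 ± 0.20, adjusted p = 0.0143). At 7 months it read 172 to 201 in wild type, 430.2 to 474 in Ptend/d and 340.1 to 441 in Ptend/dSmad4d/d lung, a rise of 2.31-fold (1.21 ± 0.11, 0.000392) and 2.09-fold (1.06 ± 0.11, 0.00108). Its pattern is that of the brighter probe set. Ehf 1419474_a_at moved less, by 1.71-fold in tumours (0.78 ± 0.17, 0.0401), 1.37-fold in Ptend/d (0.46 ± 0.10, 0.0220) and 1.65-fold in Ptend/dSmad4d/d lung (0.72 ± 0.10, 0.00432), and its values in the mutants were 98.7 to 126 and 129.7 to 143, without overlap (0.26 ± 0.10, 0.248). Ehf 1447760_x_at read between 1.0 and 13.9 on all 15 arrays, below the added 16, and was not called in any comparison. The x in its name marks probes that can also match other transcripts.

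Leaving out 1 of wild type arrays 1, 2 and 3 at 12 months or tumour array 1 ended the tumour call of all 3 Ehf probe sets, with adjusted p of 0.0658, 0.0627, 0.0751 and 0.0630 for 1451375_at; the dimmer 1419474_a_at kept its call in 1 of the 6 such fits. The log2 fold change of 1451375_at in them was 1.26 to 1.72. Against the 1 wild type array without Xist it was 1.43. The calls of 1451375_at and 1419475_a_at at 7 months against wild type held in every alternative run, while the Ptend/d call of 1419474_a_at was lost in several (adjusted p up to 0.0800). By level, wild type at 7 months was lowest for 1451375_at and the tumours highest. Ptend/dSmad4d/d, Ptend/d and wild type at 12 months, with means of 635, 658 and 708, lay between them and overlapped. The tumour effect and the Ptend/dSmad4d/d effect at 7 months differed by 0.43 ± 0.25 (adjusted p = 0.441).

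Elf5 rose in the Ptend/d lungs alone among the 3 comparisons with wild type. At 7 months Elf5 1419555_at read 324, 309 and 285 in wild type, 507, 522 and 460.4 in Ptend/d, and 340.1, 406 and 317 in Ptend/dSmad4d/d lung. The Ptend/d lungs lay above all other arrays at this age, and Ptend/dSmad4d/d overlapped wild type. Ptend/d was 1.59-fold above wild type (0.67 ± 0.10, adjusted p = 0.00479), whereas Ptend/dSmad4d/d differed from wild type by 0.20 ± 0.10 with an interval of -0.04 to 0.43 (adjusted p = 0.373).

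Set directly against Ptend/d, the Ptend/dSmad4d/d lungs read lower for Elf5 1419555_at, by -0.47 ± 0.10 with an interval of -0.71 to -0.24, a difference that missed the threshold (adjusted p = 0.0703). All 3 values lay below all 3 of Ptend/d. This difference was called in 5 of 18 alternative settings, with adjusted p from 0.0242 to 0.436. The Ptend/d call was lost in the common fit of 15 arrays (adjusted p = 0.124) and held in the other alternatives run.

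At 12 months Elf5 1419555_at read 295, 334 and 312 in wild type and 259, 629 and 256 in the tumours. Tumour array 2 was the highest of all 15 arrays for this probe set and the other tumours were below every wild type array. The log2 fold change of 0.15 ± 0.33 (adjusted p = 0.841) became -0.27 (adjusted p = 0.153) without tumour array 2. That tumour was also the lowest of the 3 for Elf3, for 3 Ehf probe sets and for Spdef. Its summed markers of alveolar type 2 cells, the surfactant cells, were 57604 against 45907 and 34848 in the other tumours. Those of alveolar type 1 cells were 27382 against 21440 and 16415, and endothelial markers 10619 against 8339 and 6845. In wild type at 12 months these sums were 55412 to 57787, 28371 to 31179 and 14317 to 16577, so this tumour was above the wild type range in none of them. Their part in the result was not tested. The second probe set, Elf5 1419556_at, read 9.18 to 32.7 on all arrays, near the added 16, and was called nowhere; its Ptend/d value was 0.43 (adjusted p = 0.155). By mean level of 1419555_at the order was wild type at 7 months, wild type at 12 months, Ptend/dSmad4d/d, the tumours and Ptend/d, and each neighbouring pair in it overlapped.

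Ehf and Elf5 are neighbours on the chromosome, which allowed the interval to be read gene by gene. Of the genes with a probe set there, BC016548, a long non-coding RNA gene between the pair, and Cat, the catalase gene 2.9 kb from Elf5, were also called higher in Ptend/d lung. BC016548 read 11.4, 11.9 and 18.6 in wild type, 27.9, 34.6 and 27.3 in Ptend/d, and 14.8, 21.4 and 18.3 in Ptend/dSmad4d/d lung. Like Elf5, it was high in the Ptend/d lungs without overlap with either other group, but most of its values lay near or below the added 16. Its rise over wild type was 1.54-fold (0.62, adjusted p = 0.0131), against 0.19 (0.461) in Ptend/dSmad4d/d and 0.23 (0.191) in tumours. Cat rose 1.21-fold in Ptend/d lung (0.28, 0.0486) and was not called in Ptend/dSmad4d/d lung (0.07, 0.690) or in tumours (-0.17, 0.551). Between the mutants BC016548 differed by -0.43 (0.135) and Cat by -0.21 (0.224), neither of them called. Pdhx, Apip and Abtb2, the next genes outward, were called in none of the 4 comparisons.

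**Figure D2:**
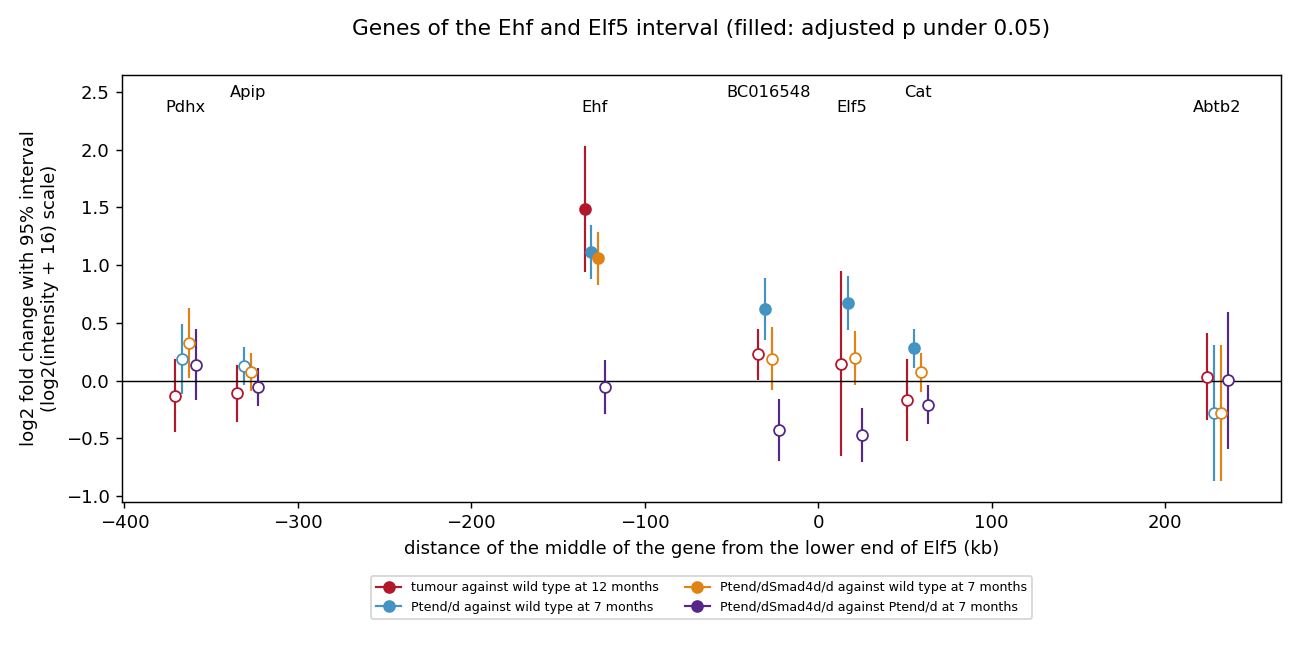
Log2 fold changes with 95% intervals (vertical axis, log2(intensity + 16) scale) of Ehf, Elf5 and their neighbours, placed by the distance of each gene's middle from the lower end of Elf5 in kb (horizontal axis); colours are the 4 comparisons and filled points have an adjusted p under 0.05. Ehf is high against wild type in tumours and both mutants, while BC016548, Elf5 and Cat are called in the Ptend/d lungs alone (Elf5 at 0.67, Cat at 0.28).

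Spdef rose in the tumours and in no other comparison with wild type. At 12 months Spdef 1450220_a_at read 22.7, 33.5 and 18.3 in wild type and 132, 105 and 156 in the tumours. Every tumour was above every other array in the series. The means were 24.8 ± 7.84 and 131 ± 25.4 (n = 3 each), a 3.61-fold rise (1.85 ± 0.18, adjusted p = 0.00817); the wild type level lay near the added 16, which holds this fold down, and it was 1.13 with 64 and 2.38 with 1 added in place of 16. The call held with each array left out in turn. Against the 1 wild type array without Xist, which read 33.5, the log2 fold change was 1.56.

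At 7 months Spdef read 20.7, 30.0 and 19.7 in wild type, 23.2, 10.97 and 10.6 in Ptend/d, and 42.4, 31.1 and 41.6 in Ptend/dSmad4d/d lung. The Ptend/dSmad4d/d arrays were above all others at this age, the lowest by a small margin, and Ptend/d overlapped wild type. None of these differences was called. Ptend/dSmad4d/d differed from wild type by 0.47 ± 0.17 (interval 0.08 to 0.85, adjusted p = 0.198), Ptend/d by -0.37 ± 0.17 (-0.75 to 0.02, 0.231), and the mutants from each other by 0.83 ± 0.17 (0.44 to 1.22, 0.0578). The last was called in 3 of 17 alternative settings. By mean level the order was Ptend/d, wild type at 7 months, wild type at 12 months, Ptend/dSmad4d/d and the tumours, and each neighbouring pair except the last overlapped.

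The tumour effect on Spdef exceeded the effect of the same genotype in lung at 7 months by 1.39 ± 0.26 on the log2 scale (adjusted p = 0.0204), the only member for which this difference was called, where 1.82% of all probe sets were called in either direction. It was called in 17 of 21 alternative settings. It missed the threshold without wild type array 3 at 12 months (1.27, adjusted p = 0.0529), without Ptend/dSmad4d/d array 2 (1.29, 0.0512) and with 1 added in place of 16 (1.68, 0.0941). The other such setting kept the 1 wild type array without Xist (1.09, 0.179), with the spread taken from the other groups and that array assumed to vary as they do. Pacsin1, Rps10, Ilrun and Snrpc, the nearest genes with a probe set around Spdef, were called in none of the 4 comparisons between groups.

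**Figure D3:**
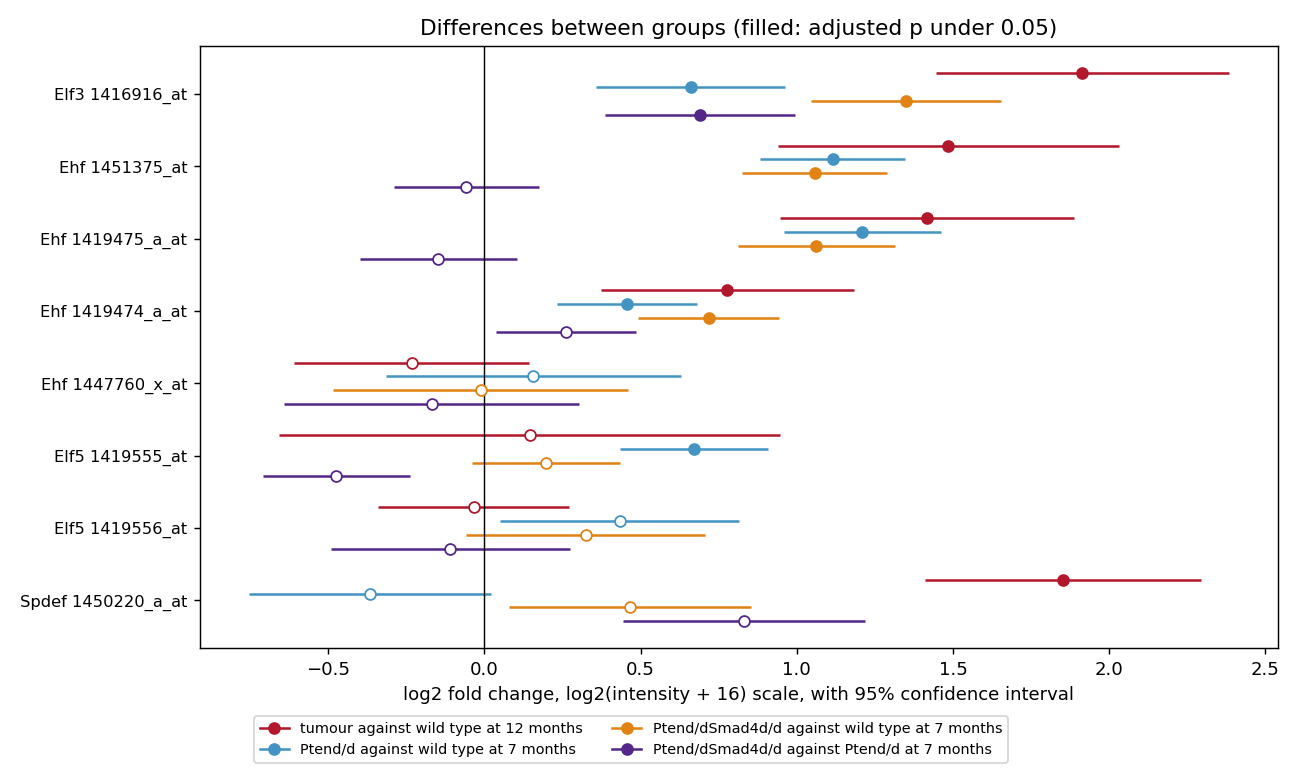
Log2 fold changes with 95% intervals (horizontal axis, log2(intensity + 16) scale) of the 8 probe sets in 4 comparisons, by colour; filled points have an adjusted p under 0.05. Elf3 is to the right of 0 in all 4, the 3 brighter Ehf probe sets in the 3 comparisons with wild type, Elf5 1419555_at lies at 0.67 in Ptend/d lung and at -0.47 between the mutants, and Spdef is called in tumours alone.

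The rest of the ETS family was read beside them. Of 22 listed genes 20 were measured, and in the tumours 1 rose and 2 fell, the median log2 fold change being -0.10, where over all genes 7.57% rose, 4.32% fell and the median was 0.01. The 1 that rose was Spib, a lymphoid ETS factor, at 1.53 ± 0.36 (adjusted p = 0.0489). Erg and Fli1, ETS factors of endothelial and blood cells, fell by 1.49 (0.0241) and by 0.58 (0.0314) on the log2 scale. Erg read 289, 415 and 184 in the tumours and 816, 843 and 797.5 in wild type. Over these same arrays 4 of 7 endothelial markers fell with a median of -1.24, and their sum was 6845 to 10619 in tumours and 14317 to 16577 in wild type. Their part in the fall of Erg was not tested.

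At 7 months Erg fell by 0.38 in Ptend/d (adjusted p = 0.0167) and by 0.50 in Ptend/dSmad4d/d lung (0.00788), where 2 of 7 endothelial markers fell in each. In Ptend/d lung Elk4 also fell by 0.26 (0.0376), and Etv5, an ETS factor of alveolar type 2 cells, rose by 0.49 (0.0150). That made 1 of 20 higher and 2 lower in Ptend/d (median -0.06) and 0 higher and 1 lower in Ptend/dSmad4d/d (median -0.13), where 8.26% and 3.90% of all genes were called in the first and 4.96% and 0.517% in the second. None of the 20 was called between the mutants, where 0.759% of all genes were higher and 0.715% lower. Etv5 read 1857 in tumour array 2 against 828 and 507 in the other tumours, and 1856 to 2122 in wild type at 12 months. That tumour was thus the highest of the tumours for Etv5 but within the wild type range. For the brighter Elf5 probe set it was also the highest tumour, but above every wild type array.

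**Figure D4:**
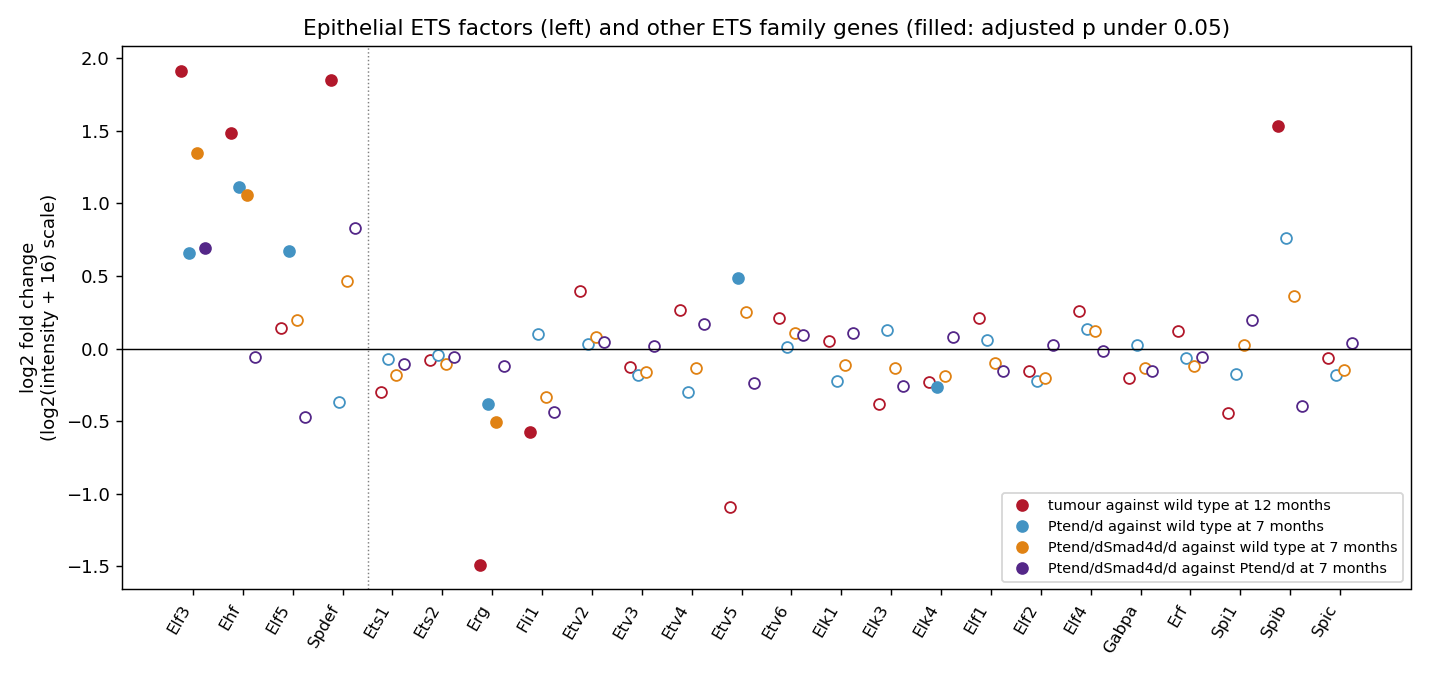
Log2 fold changes (vertical axis, log2(intensity + 16) scale) of the 4 epithelial ETS factors, left of the dotted line, and 20 other ETS family genes, 1 probe set per gene, in 4 comparisons by colour; filled points have an adjusted p under 0.05. Most other family genes lie near 0, with Spib (1.53) above and Erg (-1.49) below in tumours.

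Genes of the goblet cell programme, in which Spdef acts, were higher in the tumours than in wild type in 8 of 12 cases and lower in 0. That stands beside 7.57% of all genes higher and 4.32% lower, and the list had a median log2 fold change of 1.55. Muc16, a membrane mucin, rose 9.29-fold (3.22 ± 0.21, adjusted p = 0.00475), and Ern2, the stress sensor of mucous cells, 8.46-fold (3.08 ± 0.23, 0.00489). Fcgbp, a mucus protein, rose 6.45-fold (2.69 ± 0.32, 0.0111). Agr2, a disulfide isomerase needed for mucin folding, read 3249, 2993 and 3968 in the tumours and 49.6, 239.8 and 213 in wild type, a 21.7-fold rise (4.44 ± 0.51, 0.0101). Foxa3, a forkhead factor placed under Spdef in goblet cells, read 184, 158 and 195 in the tumours and 179, 166 and 205 in wild type (-0.03, 0.911). Thus Foxa3 overlapped where Spdef did not.

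In Ptend/dSmad4d/d lung, where Spdef was not called, 6 of the 12 rose and 0 fell with a median of 1.21. Agr2 rose 15.4-fold (3.95 ± 0.22, adjusted p = 9.8e-05), Galnt12, an enzyme of mucin glycosylation, 1.68-fold (0.75 ± 0.08, 0.00112), Ern2 3.10-fold (1.63 ± 0.19, 0.00169) and the gel-forming mucin Muc5b 5.68-fold (2.51 ± 0.34, 0.00388). In Ptend/d lung 3 of 12 rose and 0 fell with a median of 0.48, namely Agr2 at 4.11-fold (2.04, 0.000759), Galnt12 (0.57, 0.00285) and Muc5b (1.48, 0.0272). Between the mutants 2 rose, Agr2 at 3.75-fold (1.91 ± 0.22, 0.00457) and Ern2 at 2.36-fold (1.24 ± 0.19, 0.0168). Over all genes 4.96% rose and 0.517% fell in Ptend/dSmad4d/d, 8.26% and 3.90% in Ptend/d, and 0.759% and 0.715% between the mutants. Agr2 read 203, 185 and 211 in Ptend/d and 651, 768 and 991 in Ptend/dSmad4d/d lung, against 21.0, 48.5 and 44.1 in wild type. Like Elf3, it formed 3 steps without overlap. For Muc16 the difference between the tumour effect and the effect at 7 months was 2.77 ± 0.37 (0.00456) and for Ern2 1.45 ± 0.31 (0.0325), while for Agr2 it was 0.49 ± 0.56 (0.744).

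**Figure D5:**
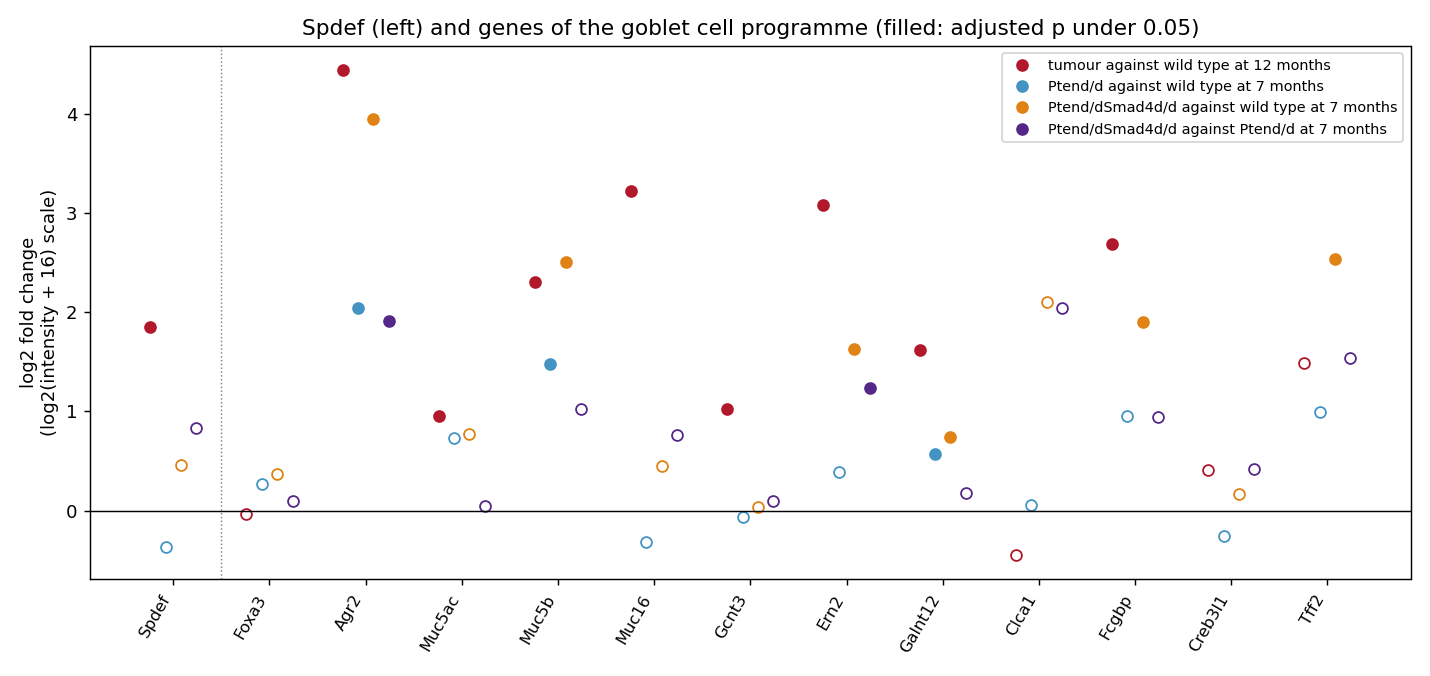
Log2 fold changes (vertical axis, log2(intensity + 16) scale) of Spdef, left of the dotted line, and 12 goblet cell programme genes in 4 comparisons by colour; filled points have an adjusted p under 0.05. Agr2 is the highest point in tumours (4.44) and in Ptend/dSmad4d/d lung (3.95), while Spdef is called in tumours alone.

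Genes tied to Elf3, Elf5 or Ehf in other tissues moved in both directions. The list gives no direction expected for each gene, so its counts and median do not measure a shared response. Of 18 listed, 16 were measured, and in the tumours 4 rose and 4 fell with a median of 0.01, beside 7.57% and 4.32% of all genes. Cldn7, a tight junction claudin, rose 2.0-fold in the tumours (1.0 ± 0.11, adjusted p = 0.00894), 1.44-fold in Ptend/dSmad4d/d (0.53 ± 0.07, 0.00309) and 1.33-fold in Ptend/d lung (0.41 ± 0.07, 0.00679). The chemokine Ccl20 (2.76, 0.0138), Erbb2 (0.82, 0.0152) and Sprr1a, a cornified envelope protein (1.05, 0.0246), were the other 3 that rose in tumours. Zeb2 and Zeb1, repressors of epithelial genes, fell by 0.76 (0.0275) and 0.73 (0.0292), the antimicrobial protein Lcn2 fell by 0.69 (0.0339) and the angiopoietin Angpt1 by 1.27 (0.0395). In Ptend/dSmad4d/d lung 2 rose, Cldn7 and Sprr1a (1.01, 0.0190), in Ptend/d 1 rose, and between the mutants 0 of 16 were called. Of all genes 4.96% rose and 0.517% fell in Ptend/dSmad4d/d, 8.26% and 3.90% in Ptend/d, and 0.759% and 0.715% between the mutants.

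Erbb2, the receptor tyrosine kinase named in the series title, is on this list and was set beside Elf3. Erbb2 1424919_at read 317, 276 and 330.1 in the tumours and 149, 166 and 187 in wild type at 12 months, without overlap (1.77-fold). On the arrays at 7 months, where Elf3 formed 3 steps, it read 166 to 185 in wild type, 159.9 to 186 in Ptend/d and 179 to 201 in Ptend/dSmad4d/d lung. Any link between Elf3 and Erbb2 was not tested. Erbb2 differed from wild type by -0.01 (adjusted p = 0.951) and 0.11 (0.556) in these lungs, and by 0.12 (0.513) between them. Its tumour effect was larger than its effect at 7 months by 0.71 ± 0.14 (0.0226). Tgfbr2, a TGF-beta receptor that Elf3 activates in other epithelia, differed by -0.20 (0.231) in tumours, 0.02 (0.921) in Ptend/dSmad4d/d, 0.07 (0.576) in Ptend/d and -0.05 (0.744) between the mutants.

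Beside 7.57% of all genes higher and 4.32% lower in the tumours, other epithelial transcription factors, 13 measured of 14, rose in 7 cases and fell in 0. Their median was 0.50. They were led by Klf5 (1.52, adjusted p = 0.00485), Sox2 (1.80, 0.00886) and Trp63 (2.69, 0.00941), factors of airway and basal cells, and Foxa1 (1.18, 0.0101). At 7 months Sox2, Grhl2 and Foxa1 rose in both mutants, Sox2 at 2.15-fold in Ptend/dSmad4d/d (0.000558) and 1.86-fold in Ptend/d lung (0.000986). In all, 3 rose and 0 fell in Ptend/dSmad4d/d (median 0.31), 5 rose and 1, Klf4, fell in Ptend/d (median 0.35), and 0 were called between the mutants (median 0.05). The shares of all genes were 4.96% and 0.517% in Ptend/dSmad4d/d, 8.26% and 3.90% in Ptend/d, and 0.759% and 0.715% between the mutants.

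Markers of the cells in the tissue moved with these factors. Their counts stand beside 7.57% of all genes higher in tumours, 4.96% in Ptend/dSmad4d/d, 8.26% in Ptend/d lung and 0.759% between the mutants. Of 11 pan-epithelial markers measured of 12, 9 rose in tumours, 6 in Ptend/dSmad4d/d and 6 in Ptend/d lung, 0 were called between the mutants and 0 fell. Their summed intensity was 35846 to 40827 in tumours against 18295 to 20449, and at 7 months 26860 to 28118 in Ptend/dSmad4d/d, 24560 to 25818 in Ptend/d and 21015 to 23068 in wild type lung. Of 8 ciliated cell markers 8, 6 and 7 rose in the same 3 comparisons and 0 were called between the mutants, with sums of 6661 to 7884 in Ptend/dSmad4d/d, 7464 to 8161 in Ptend/d and 4184 to 4266 in wild type. The ciliated sums of the mutants overlapped, as did Ehf 1451375_at but not Ehf 1419474_a_at. Of 6 basal cell markers 5 rose in tumours, 1, Krt15, in Ptend/dSmad4d/d and between the mutants, and 0 in Ptend/d lung; their sum was 2444 to 6192 in tumours, 494 to 999 in Ptend/dSmad4d/d and 121 to 346 elsewhere. Of 6 club cell markers 2, 3 and 2 rose in tumours, Ptend/dSmad4d/d and Ptend/d lung, with sums of 61554 to 65374, 65899 to 68303 and 56325 to 58937. In wild type these sums were 40364 to 50812 at 12 months and 38120 to 45432 at 7 months. Between the mutants 0 club cell markers were called. At 7 months the club cell and pan-epithelial sums each formed 3 steps without overlap, as Elf3 did. Of the club cell markers, Bpifa1, Scgb3a1 and Scgb3a2 formed such steps, while Cldn10 and Cyp2f2 overlapped between the mutants. The median log2 fold change between the mutants was 0.07 over the club cell list and 0.17 over the pan-epithelial list. The part of all these markers in the rise of Elf3, Ehf and Spdef was not tested.

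The remaining marker lists ran as follows, beside 7.57% of all genes higher and 4.32% lower in tumours. At 7 months these shares were 4.96% and 0.517% in Ptend/dSmad4d/d, 8.26% and 3.90% in Ptend/d, and 0.759% and 0.715% between the mutants. Alveolar type 2 markers, 6 measured of 7, had 1 called in any of the 4 comparisons, Abca3, which rose in Ptend/d lung; their sum of 52017 to 57787 in wild type shows the labelled tissue. Of 8 alveolar type 1 markers 1 fell in tumours, Spock2, and 1, Akap5, in Ptend/dSmad4d/d lung against wild type and against Ptend/d. Over this list the median log2 fold change in tumours was -0.97. Its sum was 16415 to 27382 in tumours and 28371 to 31179 in wild type at 12 months. Of 6 macrophage markers 3 fell in tumours and 0 were called at 7 months. Of 6 lymphocyte markers measured of 7, the B cell genes Cd79a and Cd79b rose in Ptend/d lung and Cd79b was lower in Ptend/dSmad4d/d than in Ptend/d. Of 6 cardiac muscle markers 5 rose in tumours and 0 were called at 7 months, the sum being 26009 to 29427 in tumours and 11140 to 15957 in wild type at 12 months. Of 7 salivary and submucosal gland markers Prol1 fell in tumours and Ltf rose in both mutants, with median log2 fold changes of 0.21, 0.07 and 0.07 over the list. Their sums, 9624 to 10204 in tumours, 592 to 2340 in wild type at 12 months, 2793 to 6932 in Ptend/dSmad4d/d, 1559 to 1632 in Ptend/d and 242 to 645 in wild type at 7 months, were mostly Ltf in the tumours and mutants, which alone read 9363 to 9941 in tumours, 2600.1 to 6764 in Ptend/dSmad4d/d and 1363 to 1491 in Ptend/d lung. Of 6 stratified squamous markers Serpinb5 rose in tumours and 0 were called at 7 months. No deposited intensity was 0, the lowest being 0.48.

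The genes whose profiles came closest to each member were taken by the root mean square difference between log2 profiles centred over the 15 arrays, among 12758 genes (12759 for Spdef) with a mean intensity of at least 64. For Elf3 they were Melk (0.21), Slc13a2 (0.21) and St8sia6 (0.22), where the Elf3 profile itself had a root mean square of 0.88. St8sia6, a sialyltransferase gene, read 189 to 212 in wild type, 299 to 311 in Ptend/d and 425 to 526 in Ptend/dSmad4d/d lung. It formed 3 steps as Elf3 did, and so did Melk and Slc13a2. For Ehf they were Gprc5c (0.18), Gm11992 (0.19) and Ccdc89 (0.20) with a profile of 0.88. For Elf5 they were Exosc7 (0.13), Ptgr1 (0.15) and Rab27b (0.16) with a profile of 0.36, and Exosc7, an RNA exosome subunit gene, read 1079 in tumour array 2 against 619 and 579.7 in the other tumours. For Spdef they were Cadm4 (0.26), Tex9 (0.28) and Tubb2b (0.29) with a profile of 0.81. These distances are descriptions over arrays that share their groups, and no closest gene was shared between members. The genes were picked for likeness on these same arrays, so a pattern shared with a member comes with the choice.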

How the data were processed

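Probe set intensities on a linear scale, as deposited by the authors, were used for 15 arrays, 3 in each of 5 groups. Per the labels' protocols, TRIzol and RNeasy columns gave the total RNA, of which 250 ng was labelled by the Affymetrix 3' IVT Express protocol, which reads mostly the 3' end of transcripts. Summarization, background correction and scaling are not given in the sources used here. Of 45101 probe sets, 64 controls were left out; 34958 had 1 gene symbol in the platform annotation, 932 several and 9211 are unnamed here. Names were checked by gene number against the RefSeq table of GRCm38.p6 (34754 matched, 0 symbols changed).

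Log2(intensity + 16) was fitted with limma 3.58.1 (R 4.3.3, lmFit and eBayes, two-sided), with the 6 arrays at 12 months and the 9 at 7 months in separate fits and the difference between ages as a contrast over 15. P-values were adjusted by Benjamini-Hochberg over 45037 probe sets. Between 17.1% and 21.1% of values on an array lay below 16. A listed gene stands for its probe set of highest mean log2 value. The steps were tested on simulated arrays. No 2 arrays held identical values.

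The members and gene lists were chosen with earlier results of these data known. Every member probe set is reported; up to 4 called genes of a list are named by smallest adjusted p, with Agr2, Erbb2 and Tgfbr2 always; the 3 closest genes by profile and the 2 nearest genes with a probe set on each side were taken by rule. Other called genes, Foxa3, Etv5, Muc5b and Krt15 among them, were named after their values were seen. Alternatives changed the scaling (quantile normalization, median centring), the pseudocount (1 or 64), a filter at a mean intensity of 64, the variance model, array weights, the features adjusted over, the arrays in the fit, each array left out, and the replicate block.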

Additional observations from a re-analysis of the deposited data

Results flagged for a closer look

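The effect of the Ptend/dSmad4d/d genotype on Spdef differed between tumours at 12 months and lung at 7 months. The tumour effect was larger by 1.39 ± 0.26 on the log2 scale, from a contrast over all 15 arrays (limma adjusted p = 0.0204). All 3 tumours lay above all 3 wild type arrays of their age, and so did all 3 Ptend/dSmad4d/d lungs of theirs, so the effects share their direction and differ in size. Age, tissue and any batch differ together between these sets and cannot be told apart. Outside the tumours the arrays of this contrast read 18.3 to 42.4, near the added 16. With 3 arrays in a group, no single array was tested for standing apart.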

How the results depend on the processing

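No alternative turned the direction of a called value, and the 40 mean levels kept within 1 SD after quantile normalization. Of the member fold changes recomputed, 670 kept their side of the threshold, 38 lost a call and 9 gained one. The count of called member probe sets was 5 in tumours, 4 in Ptend/dSmad4d/d and 5 in Ptend/d against wild type, 1 between the mutants and 1 for the difference between ages. With 1 probe set per gene it was 3, 2, 3, 1 and 1, since fewer probe sets are counted. With 1 array left out in turn it was 1 to 5, 4 to 4, 3 to 5, 0 to 1 and 0 to 2; the lowest tumour count came without wild type array 3. In Ptend/d lung the common fit gave 3. Between the mutants quantile normalization, a pseudocount of 1, the common fit and the fit of only those groups each gave 0, array weights and the filter at a mean of 64 gave 2, and a pseudocount of 64 and the variance trend with robust fitting gave 3. For the difference between ages a pseudocount of 1, the filter, which drops Spdef, and the 1 wild type array without Xist each gave 0. The cause of the other changes was not tested. Same-numbered arrays at 7 months deviated together, at a correlation over 0.1, in 1 of 9 pairs (correlations of -0.128 to 0.161). Arrays with different numbers gave -0.181 to 0.15. These correlations show no sign of pairing by number, but over so few arrays they cannot exclude it. With the replicate block 4, 4 and 1 member probe sets were called in Ptend/dSmad4d/d, in Ptend/d and between the mutants. The replicate block was not run for the difference between ages. Signal over background limits Ehf 1447760_x_at, Elf5 1419556_at and, outside the tumours, Spdef.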
